A study of Mus musculus with 12 samples.

Results

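The 10 genes described here encode receptors for adenosine and for extracellular nucleotides: *Adora1*, *Adora2a*, *Adora2b* and *Adora3* for adenosine, *P2rx4* and *P2rx7* for ATP, and *P2ry2*, *P2ry6*, *P2ry12* and *P2ry14* for nucleotides and nucleotide sugars. They were chosen by name, as the probes whose RefSeq transcript belongs to one of these genes, which gave 13 of the 55681 probes of the array and 10 of the 20887 gene symbols on it. Of these, 8 genes and 11 probes passed the filter on dim probes, which asked that every array of 1 group or more read well above background. *Adora1* and *P2ry12* did not pass and were not tested.

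ATP leaves stressed or activated cells and opens P2X receptors, which are cation channels, or activates P2Y receptors, which couple to G proteins. Enzymes on the cell surface then strip the phosphates and leave adenosine, which acts on its own G protein-coupled receptors: *Adora2a* and *Adora2b* raise cyclic AMP, while *Adora1* and *Adora3* lower it. In macrophages, ATP acting on *P2rx7* is a classical trigger of inflammasome activation, and adenosine acting on *Adora2b* is known to favour alternative activation, the state that IL4 induces.

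The cells were peritoneal macrophages that had adhered to plastic, from 8 weeks old C57BL/6 mice, and the sample titles call every group wild type. Cells received vehicle (control), 10 ng/ml of IL4, or 10 ng/ml of IL4 plus 50 µM of emodin, an anthraquinone from plants, with 4 arrays in each of the 3 groups. All cells had been kept overnight without serum before treatment. In each group, arrays 1 and 2 were labelled female and arrays 3 and 4 male. The series title concerns emodin and the alternative activation of macrophages. The labels disagree on the duration, given as 6 h in the descriptions and as overnight in the protocol. They also disagree on the source, since a design note names blood leukocytes instead. The labels do not say whether animals were pooled or what was separate between replicates, and the p-values therefore reflect only array-to-array spread, which may be partly technical.

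Values below are log2 intensity minus the 75th percentile of the array, and each probe is compared with itself only, since brightness differs between probes. All 7 macrophage markers on the array, among them *Csf1r* and *Adgre1*, lay well above background on all 12 arrays, and so did 3 of 4 markers of large peritoneal macrophages. The 75th percentile lay at an intensity of 633 to 810 on control arrays, 761 to 813 on IL4 arrays and 447 to 516 on emodin arrays. A slide effect and emodin cannot be told apart, because control and IL4 arrays shared a slide that held no emodin array. IL4 arrays lay in one row of the slide and control arrays in the other, so row and IL4 cannot be told apart either. In every group the replicate number was also the column on the slide, so neither number nor sex can be told apart from column. Words such as raised, lowered or left by IL4 or emodin therefore describe the arrays of a group, not a separated cause. In these bulk samples fewer cells of a type and less RNA per cell cannot be told apart.

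IL4 moved 2 adenosine receptors in opposite directions, *Adora2b* up and *Adora3* down, and both were lower with emodin. Among the nucleotide receptors, *P2ry6*, a receptor for UDP, had the largest difference between emodin and IL4 alone, -3.59 on the log2 scale. Of the 8 tested receptor genes, 6 were called with IL4 against control (limma, adjusted p below 0.05), 4 higher and 2 lower, where 17.5% of all genes tested were called, 8.97% higher and 8.55% lower. With emodin against IL4 alone, 8 of 8 were called, 2 higher and 6 lower, where 65.9% of all genes were called, 39.4% higher and 26.5% lower. With emodin against control, 7 were called, 2 higher and 5 lower, where 62.9% of all genes were called, 37.3% higher and 25.6% lower. In both emodin comparisons *P2rx7* is counted as lower by its brightest probe (-1.44 and -0.97). Its other 2 probes stood at 1.10 and 0.14 against IL4, and at 1.33 and 0.45 against control. The compared groups did not overlap for 6, 7 and 7 of the 8, beside 24.9%, 60.4% and 54.3% of all genes. The median log2 difference over the 8 receptor genes was 0.34, -1.45 and -0.98 in these comparisons, beside -0.03, 0.17 and 0.15 over all genes. A difference of at least 2-fold was found for 2, 5 and 3 of the 8 receptor genes and for 4.29%, 18.7% and 16.9% of all genes. The comparisons share arrays pairwise, so their values for a gene are not independent of each other.

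**Figure D1:**
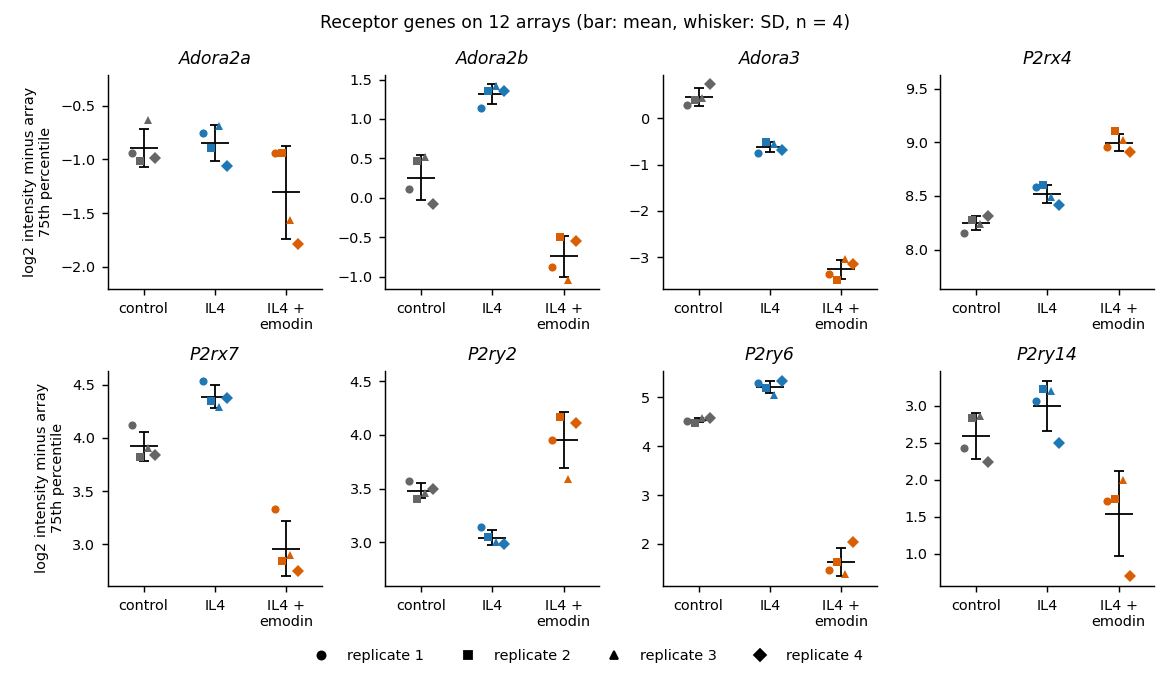
Level of the 8 tested receptor genes on each of the 12 arrays, as log2 intensity minus the 75th percentile of the array, with replicate numbers as marker shapes, the group mean as a bar and the SD as whiskers (n = 4). *P2ry6* on the emodin arrays lies between 1.39 and 2.04, below all control and IL4 arrays, while the 3 groups of *Adora2a* overlap.

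**Figure D2:**
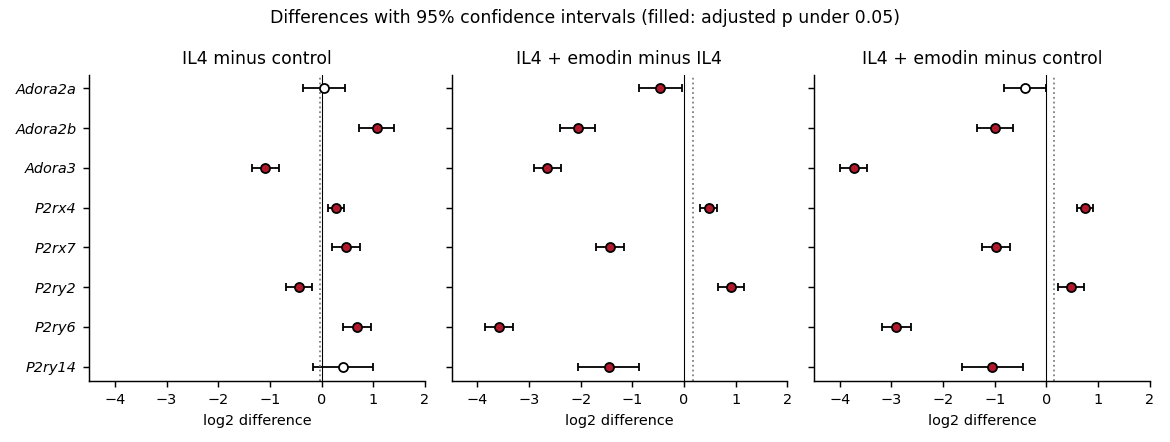
Log2 difference of each receptor gene in the 3 comparisons with its 95% confidence interval, filled where the adjusted p is below 0.05, with a dotted line at the median of all genes. With emodin against IL4 alone, 6 of 8 points lie below 0, from -0.46 for *Adora2a* to -3.59 for *P2ry6*. *P2rx7* is drawn by its brightest probe only. The 2 points above 0, *P2rx4* and *P2ry2*, turn below 0 with spike-in scaling.

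*Adora2b*, the adenosine receptor that responds to high adenosine, rose with IL4 and fell below control with emodin. It read 0.11, 0.47, 0.52 and -0.08 on the control arrays, 1.14, 1.36, 1.42 and 1.35 on the IL4 arrays and -0.88, -0.50, -1.04 and -0.55 on the emodin arrays. The 3 groups did not overlap. The log2 difference was 1.06 ± 0.16 (SE, n = 4 per group) for IL4 against control (limma adjusted p = 0.000539, 2.09-fold), and -2.06 ± 0.16 for emodin against IL4 (adjusted p = 4.13e-07, 4.16-fold lower). Against control, emodin left it 1.99-fold lower (-0.996 ± 0.16, adjusted p = 0.000159). A second *Adora2b* probe of the same transcript moved in the same directions, by 0.93 ± 0.13, -1.29 ± 0.13 and -0.36 ± 0.13 (adjusted p = 0.000301, 3.17e-06 and 0.0252). On that probe the emodin and control arrays overlapped.

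*Adora3*, an inhibitory adenosine receptor known for its role in mast cells, fell with IL4 and fell further with emodin. The control arrays read 0.29, 0.40, 0.44 and 0.74, the IL4 arrays -0.74, -0.51, -0.55 and -0.68, and the emodin arrays -3.37, -3.49, -3.04 and -3.16. Every emodin array lay below every IL4 array, which in turn lay below every control array. IL4 arrays read 2.13-fold lower than control (-1.09 ± 0.12, limma adjusted p = 5.69e-05), and emodin arrays a further 6.25-fold lower than IL4 (-2.64 ± 0.12, adjusted p = 7.33e-09). The level with emodin was 13.3-fold below control (-3.73 ± 0.12, adjusted p = 9.43e-10). The emodin arrays read near the floor, with a mean of -3.26 beside -3.94 for the dimmest probes well above background. Over 25 alternatives the difference ranged from -3.73 to -1.71 against IL4 and from -4.69 to -2.68 against control, so its size depends on the processing. *Tmigd3*, a gene that overlaps *Adora3* in the annotation, has a probe of its own, on which the differences were 0.35, -0.35 and 0.00, each with an SE of 0.35 and none called (adjusted p = 0.557, 0.396 and 0.998). The summed level of the 8 mast cell markers (of 9) that were ever above background ranged from -0.30 to 1.17, from 0.33 to 1.81 and from 0.10 to 1.50 in the control, IL4 and emodin groups. Among these markers *Hdc* rose by 1.75 with IL4 and fell by 1.58 with emodin against IL4, and *Kit* rose by 1.92 with emodin against IL4. *Cpa3*, *Mcpt4*, *Cma1* and *Tpsb2* were tested too and not called in either comparison. They stood at 0.12, -0.12, -0.06 and -0.11 with IL4, and at -0.35, 0.61, 0.78 and 0.39 with emodin against IL4. The part of mast cells in the *Adora3* values was not tested.

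Within each array, the log2 ratio of the *Adora2b* to the *Adora3* probe is unchanged by 1 scaling factor per array. Quantile normalization, which shifts probes by unequal amounts, can change it. It was higher with IL4 than in control by 2.15 and higher with emodin than in control by 2.74 (exact permutation test, two-sided, p = 0.0286, adjusted p = 0.0390 over 15 ratio comparisons). With emodin against IL4 the change was 0.59 (exact permutation p = 0.0571, adjusted p = 0.0714). The smallest p that 4 against 4 arrays can give is 0.0286, and the probe pairs were chosen after their values were seen.

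Promoter windows are shown for both genes because they moved in opposite directions with IL4. The windows are the 250 bases before the annotated start in RefSeq, build GRCm38.p6, chr11:62248734-62248983 (plus strand) for *Adora2b* and chr3:105904171-105904420 (plus strand) for *Adora3*. Capitals mark matches to the AP-1 letters TGANTCA and to the CRE letters TGACG on either strand.

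Adora2b: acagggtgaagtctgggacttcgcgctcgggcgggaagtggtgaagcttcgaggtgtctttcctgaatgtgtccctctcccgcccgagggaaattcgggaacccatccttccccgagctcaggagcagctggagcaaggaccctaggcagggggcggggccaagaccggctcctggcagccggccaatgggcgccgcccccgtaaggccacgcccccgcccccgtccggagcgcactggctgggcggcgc

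Adora3: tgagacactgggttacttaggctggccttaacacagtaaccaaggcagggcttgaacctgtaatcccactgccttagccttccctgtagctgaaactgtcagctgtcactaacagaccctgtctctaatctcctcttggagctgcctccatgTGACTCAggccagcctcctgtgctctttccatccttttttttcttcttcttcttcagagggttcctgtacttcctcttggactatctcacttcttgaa

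The *Adora3* window holds an AP-1 match from -98 to -92 relative to the start, and the *Adora2b* window holds neither set of letters. AP-1 letters occurred in 6.75% of all 32851 windows of this length and CRE letters in 17.8%. A match is a description of letters, not of binding.

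*Adora2a*, which raises cyclic AMP and is known to restrain inflammatory cytokine production, did not pass the test with IL4. Its control arrays read -0.94, -1.01, -0.63 and -0.99, its IL4 arrays -0.75, -0.89, -0.69 and -1.06, and its emodin arrays -0.94, -0.94, -1.56 and -1.79. All 3 groups overlapped, and only emodin arrays 3 and 4 lay below the rest. The difference for IL4 against control was 0.04 ± 0.19 (95% confidence interval -0.37 to 0.45, limma adjusted p = 0.914). Emodin against IL4 passed narrowly (-0.46 ± 0.19, adjusted p = 0.0482) and no longer passed without emodin replicate 4, at -0.30 (adjusted p = 0.141). Without emodin replicate 3 it was -0.37 (adjusted p = 0.124). Emodin against control was -0.41 ± 0.19 (adjusted p = 0.0722), and -0.54 without emodin replicate 1 (adjusted p = 0.0275) or replicate 2 (adjusted p = 0.0274), both of which then pass.

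*Adora1* stayed dim. It read -6.74, -5.32, -5.71 and -4.21 on control arrays, -7.11, -6.60, -5.54 and -5.65 on IL4 arrays and -5.24, -5.72, -4.79 and -3.26 on emodin arrays. Only replicate 4 of the control and of the emodin group was well above background, which is also the highest array of each of these groups, so no difference is given.

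*P2rx7*, the ATP-gated channel that opens a large pore and feeds the inflammasome, was read by 3 probes that name 3 RefSeq transcripts, and they did not move alike. The brightest probe, for transcript NM_011027, rose with IL4 and fell below control with emodin. It read 4.12, 3.82, 3.91 and 3.84 on control arrays, 4.54, 4.35, 4.29 and 4.38 on IL4 arrays and 3.33, 2.84, 2.90 and 2.75 on emodin arrays. The 3 groups did not overlap on this probe. The differences were 0.47 ± 0.12 for IL4 against control (limma adjusted p = 0.0215, 1.38-fold), -1.44 ± 0.12 for emodin against IL4 (adjusted p = 1.13e-06, 2.70-fold lower) and -0.97 ± 0.12 for emodin against control (adjusted p = 3.02e-05, 1.96-fold lower). The IL4 call was lost without control replicate 2, 3 or 4 or IL4 replicate 1 (adjusted p = 0.0504 to 0.0653).

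The probe for transcript NM_001038887 moved the other way with emodin. It read 0.43, 0.35, 0.47 and 0.43 on control arrays, 0.75, 0.73, 0.63 and 0.51 on IL4 arrays and 1.74, 1.78, 1.74 and 1.74 on emodin arrays. Every emodin array lay above all others. The difference was 0.23 ± 0.07 for IL4 against control (adjusted p = 0.0417), 1.10 ± 0.07 for emodin against IL4 (adjusted p = 1.04e-07, 2.14-fold) and 1.33 ± 0.07 for emodin against control (adjusted p = 2.39e-08, 2.51-fold). With spike-in scaling the rise over IL4 shrank to 0.01 (adjusted p = 0.927) and that over control to 0.37 (adjusted p = 0.00418), while quantile normalization gave 1.12 and 1.35.

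The probe for transcript NM_001038845 lay between these patterns. Its control arrays read -0.96, -0.94, -0.94 and -0.95, its IL4 arrays -0.57, -0.67, -0.74 and -0.56, and its emodin arrays -0.35, -0.57, -0.47 and -0.57. Control lay below both treated groups, which overlapped with each other. It rose by 0.31 ± 0.07 with IL4 (adjusted p = 0.0133) and stood 0.45 ± 0.07 above control with emodin (adjusted p = 0.000210), with 0.14 ± 0.07 between emodin and IL4 (adjusted p = 0.104). Spike-in scaling turned both differences of the emodin arrays, to -0.50 against control (adjusted p = 0.00400) and -0.94 against IL4 (adjusted p = 2.23e-05).

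Ratios of these probes within arrays are likewise unchanged by 1 scaling factor per array. These pairs, too, were chosen after their values were seen. The log2 ratio of the NM_001038887 probe to the NM_011027 probe was higher with emodin than with IL4 by 2.53 and higher than in control by 2.30. For NM_001038845 over NM_011027 these changes were 1.58 and 1.42, and for NM_001038887 over NM_001038845 they were 0.95 and 0.88 (exact permutation test, two-sided, p = 0.0286 and adjusted p = 0.0390 for each). With IL4 against control the 3 ratios changed by -0.23, -0.16 and -0.08 (exact permutation p = 0.0857, 0.114 and 0.514), with no change that passed. Where these probes lie on the gene was not analysed here, so which exons changed relative to which is not known.

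**Figure D3:**
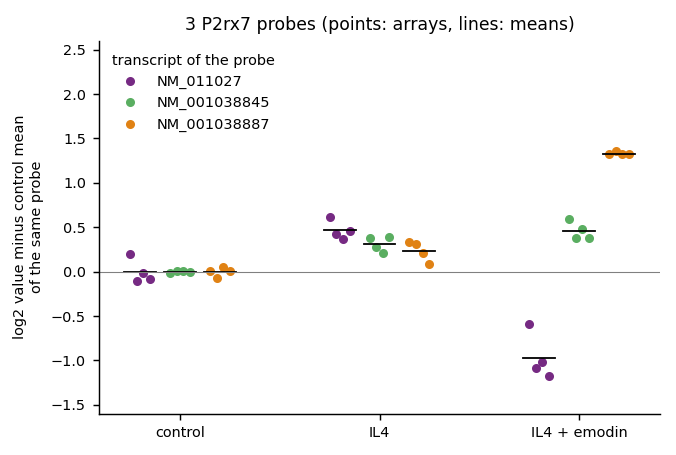
Log2 value of the 3 *P2rx7* probes on each array, minus the control mean of the same probe, with points for arrays and lines for group means. On the emodin arrays the NM_011027 probe lies below 0 and the NM_001038887 probe near 1.33 (0.37 with spike-in scaling), while all 3 probes lie above 0 on the IL4 arrays.

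*P2rx4*, an ATP-gated channel that macrophages hold largely in lysosomes, is the neighbour of *P2rx7* on chromosome 5. It read 8.16, 8.28, 8.24 and 8.31 on control arrays, 8.58, 8.60, 8.49 and 8.42 on IL4 arrays and 8.96, 9.10, 9.02 and 8.91 on emodin arrays. The groups did not overlap, with control lowest and emodin highest. The rise with IL4 was 0.28 ± 0.07 (limma adjusted p = 0.0209, 1.21-fold) and was not called without IL4 replicate 1 or 2 (adjusted p = 0.0637 and 0.0664). Relative to the 75th percentile it rose further with emodin, by 0.47 ± 0.07 over IL4 (adjusted p = 0.000123) and 0.75 ± 0.07 over control (adjusted p = 3.18e-06), but the direction over IL4 turned with quantile normalization (-0.22, adjusted p = 0.0150) and with spike-in scaling (-0.61). Over control it was 0.13 with quantile normalization (adjusted p = 0.110) and -0.21 with spike-in scaling (adjusted p = 0.0953).

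The windows of these neighbouring genes are shown because *P2rx7* has annotated starts in 2 places and its probes disagree. They lie at chr5:122643677-122643926 for start 1 of *P2rx7*, chr5:122650133-122650382 for start 2, and chr5:122707294-122707543 for *P2rx4*, all on the plus strand of GRCm38.p6, with the same letters in capitals.

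P2rx7 start 1: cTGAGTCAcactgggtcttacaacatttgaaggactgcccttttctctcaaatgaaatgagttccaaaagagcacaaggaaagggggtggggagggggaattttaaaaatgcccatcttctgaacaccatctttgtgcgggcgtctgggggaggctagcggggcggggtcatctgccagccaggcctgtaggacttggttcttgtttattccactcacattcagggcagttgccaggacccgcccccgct

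P2rx7 start 2: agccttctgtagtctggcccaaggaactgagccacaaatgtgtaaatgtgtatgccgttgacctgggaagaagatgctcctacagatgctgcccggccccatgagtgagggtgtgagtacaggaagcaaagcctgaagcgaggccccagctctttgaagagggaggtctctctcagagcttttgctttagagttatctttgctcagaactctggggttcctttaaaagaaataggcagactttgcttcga

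P2rx4: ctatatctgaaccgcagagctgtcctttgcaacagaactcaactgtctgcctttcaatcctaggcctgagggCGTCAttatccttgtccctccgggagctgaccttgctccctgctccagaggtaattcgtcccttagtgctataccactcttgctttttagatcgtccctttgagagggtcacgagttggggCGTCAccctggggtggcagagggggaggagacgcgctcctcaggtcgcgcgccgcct

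Start 1 of *P2rx7* has AP-1 letters from -249 to -243, and start 2 has neither motif. The *P2rx4* window has the CRE letters on the minus strand at -178 to -174 and at -57 to -53. Which start gives which of the 3 *P2rx7* transcripts was not analysed here.

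*P2ry6*, the UDP receptor that drives phagocytosis in microglia, was the receptor gene that differed most between emodin and IL4 alone. Its 10 spots per array were averaged. The control arrays read 4.51, 4.48, 4.58 and 4.57, the IL4 arrays 5.29, 5.19, 5.05 and 5.33, and the emodin arrays 1.47, 1.63, 1.39 and 2.04. In unscaled intensity these are 15000 to 18500, 25400 to 31800 and 1170 to 1970, so the emodin arrays lay far below the others before any scaling. IL4 raised it 1.60-fold (0.68 ± 0.13, limma adjusted p = 0.00275). Emodin left it far below IL4 (-3.59 ± 0.13, adjusted p = 1.49e-09) and 7.49-fold below control (-2.91 ± 0.13, adjusted p = 5.78e-09).

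*P2ry2*, a receptor for ATP and UTP that lets phagocytes sense nucleotides from dying cells, is the neighbour of *P2ry6* on chromosome 7 and, relative to the 75th percentile, moved in the opposite directions. It read 3.57, 3.40, 3.46 and 3.50 on control arrays, 3.14, 3.05, 3.00 and 2.99 on IL4 arrays and 3.95, 4.17, 3.59 and 4.11 on emodin arrays. The groups did not overlap, although emodin replicate 3 came close to control replicate 1. IL4 lowered it 1.35-fold (-0.44 ± 0.11, limma adjusted p = 0.0194), a call lost without IL4 replicate 3 or 4 (adjusted p = 0.0520 and 0.0527) and with spike-in scaling (-0.31, adjusted p = 0.226). Relative to the 75th percentile, emodin left it 1.88-fold above IL4 (0.91 ± 0.11, adjusted p = 2.29e-05) and 1.39-fold above control (0.47 ± 0.11, adjusted p = 0.00316), while spike-in scaling turned both, to -0.18 (adjusted p = 0.270) and -0.48 (adjusted p = 0.00871).

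The log2 ratio of the *P2ry2* to the *P2ry6* probe within arrays changed by -1.12 with IL4 against control, by 4.49 with emodin against IL4 and by 3.38 with emodin against control. Each group lay apart from the others (exact permutation test, two-sided, p = 0.0286, adjusted p = 0.0390 over the same 15 comparisons). This ratio is unchanged by a single scaling factor per array. The pair was chosen after its values were seen, so the p-values are no independent support. The opposite directions of *P2ry2* and *P2ry6* with emodin do rest on the scaling. With spike-in scaling both lay below 0, *P2ry2* at -0.18 and *P2ry6* at -4.67 against IL4, and at -0.48 and -3.86 against control.

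*P2ry14*, the receptor for UDP-glucose and related sugars, fell with emodin. Its control arrays read 2.43, 2.84, 2.86 and 2.24, its IL4 arrays 3.07, 3.23, 3.20 and 2.50, and its emodin arrays 1.72, 1.74, 2.00 and 0.70. Control and IL4 arrays overlapped, and every emodin array lay below both. Emodin against IL4 was -1.46 ± 0.27 (limma adjusted p = 0.000492, 2.75-fold lower) and emodin against control -1.05 ± 0.27 (adjusted p = 0.00492, 2.07-fold lower).

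For IL4 against control *P2ry14* differed by 0.41 ± 0.27 (95% confidence interval -0.18 to 1.00, adjusted p = 0.347), which did not pass. With the replicate number as a block the same difference had an SE of 0.12 and passed (adjusted p = 0.0416). Replicate 4 was the lowest *P2ry14* array in all 3 groups. The summed level of 7 mesothelial and fibroblast markers was 2.46, 3.24, 3.48 and 4.29 on control arrays, 2.65, 3.78, 3.96 and 4.95 on IL4 arrays and 2.74, 3.66, 3.73 and 4.83 on emodin arrays, so replicate 4 was also the highest in these markers and replicate 1 the lowest. The part of such cells in the *P2ry14* values was not tested. Without replicate 4 in all groups, the blocked difference was 0.46 (adjusted p = 0.0247).

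**Figure D4:**
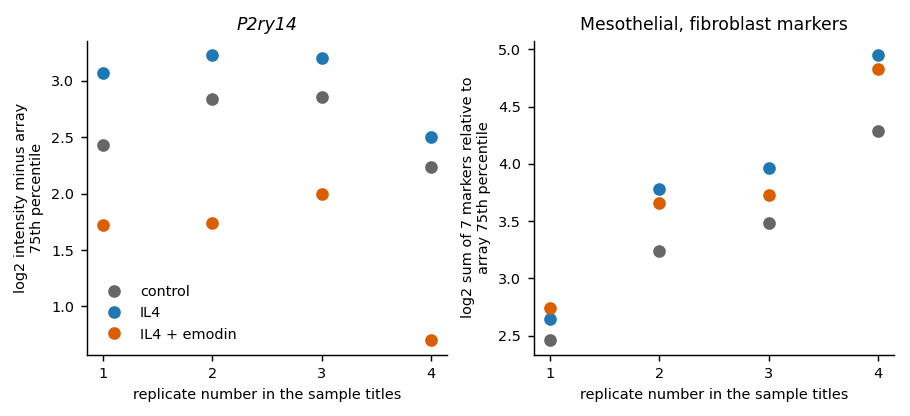
Left, *P2ry14* on each array by replicate number, as log2 intensity minus the 75th percentile, and right, the log2 summed level of 7 mesothelial and fibroblast markers on the same scale. Replicate 4 is the lowest *P2ry14* array of each group, down to 0.70 with emodin, and the highest of each group in the markers, up to 4.95 with IL4.

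*P2ry14* has 4 annotated starts. The window of the first, at chr3:59153493-59153742 on the minus strand of GRCm38.p6, is shown because it and *Adora3* share the same AP-1 letters. Both genes fell with emodin against IL4, but so did 6 of the 8 tested receptor genes in all.

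P2ry14 start 1: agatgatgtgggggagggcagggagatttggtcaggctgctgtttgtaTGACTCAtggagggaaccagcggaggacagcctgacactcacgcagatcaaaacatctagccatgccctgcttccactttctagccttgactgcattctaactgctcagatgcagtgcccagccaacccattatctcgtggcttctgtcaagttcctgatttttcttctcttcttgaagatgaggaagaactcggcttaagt

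Its AP-1 match lies from -202 to -196. Over all 14 windows found for 8 of the 10 receptor genes (none was listed for *Adora2a* or *P2ry6*), AP-1 letters occurred in 5 windows of 4 genes, beside 6.75% of all windows. The 4 genes were *Adora3*, *P2rx7*, *P2ry14* and *Adora1*, which was not tested. The window of *Adora2b*, which also fell with emodin, has no such letters. STAT-type letters, TTCNNNGAA and TTCNNNNGAA, occurred in 0 of the 14, beside 7.02% and 5.85% of all windows. CRE letters occurred in 1 of the 14, beside 17.8%. The other letters searched were PU.1 (GAGGAA), NF-kB (GGGANNNNCC) and the hypoxia response core (ACGTG). PU.1 letters matched in 5 windows of 2 genes, beside 23.3% of all windows. NF-kB and hypoxia letters matched in 3 windows each, beside 17.6% and 16.6%. No share was tested, and windows of the same gene are not independent.

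*P2ry12*, the ADP receptor of platelets and microglia, was well above background on 0 of 12 arrays. Its readings were -6.08, -5.29, -5.08 and -4.74 in control, -5.10, -6.17, -6.71 and -5.09 with IL4 and -5.94, -5.48, -5.61 and -5.85 with emodin. The groups overlap throughout, and at this signal no difference could be measured. Of 7 platelet and megakaryocyte markers, 4 were likewise never above background, while 3 were above background on all 12 arrays. Among these 3, *Pf4* was bright, with means of 6.92 in control, 6.87 with IL4 and 6.98 with emodin.

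Of the 8 differences between emodin and IL4, the 2 rises changed direction with the scaling of the arrays and the 6 falls did not, under the 3 scalings tried. Spike-in scaling uses 7 control probes of RNA added in known amount, and it moved the median of all genes for emodin against IL4 to -0.92, a shift of -1.09, with 730 genes called higher and 16903 lower, beside 8212 and 5536 at the 75th percentile. Quantile normalization shifted that median by -0.14, with 6134 called higher and 6449 lower. For emodin against control the spike-in median was -0.80, a shift of -0.96 (870 higher, 15789 lower), beside 7779 and 5344 at the 75th percentile and 5586 and 6298 with quantile normalization. For IL4 against control spike-in scaling shifted the median by 0.13, with 1894 called higher and 651 lower, beside 1872 and 1784. Falls in *P2ry6*, *Adora3*, *Adora2b*, *P2rx7* (NM_011027) and *P2ry14* exceeded the median of all genes for emodin against IL4 under each of these scalings.

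**Figure D5:**
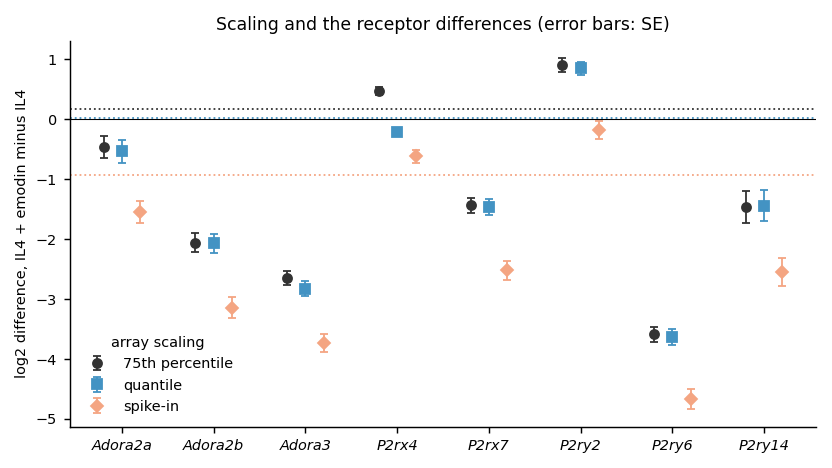
Log2 difference of each receptor gene for emodin with IL4 against IL4 alone under 3 array scalings, with SE bars and dotted lines at the median of all genes under each. *P2rx4* moves from 0.47 to -0.22 and -0.61, and *P2ry2* turns to -0.18 with spike-in scaling, while the 6 falls stay below 0.

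The counts of the related lists below stand beside these shares of all genes. With IL4 8.97% were called higher and 8.55% lower, with emodin against IL4 39.4% and 26.5%, and with emodin against control 37.3% and 25.6%. The other P2 receptors, which complete the family, had 6 of 11 genes tested. With IL4, 2 rose and 1 fell: *P2ry1*, an ADP receptor, by 1.32 ± 0.09 (limma adjusted p = 1.26e-06), *P2rx3*, an ATP-gated channel of sensory neurons, by 1.09 ± 0.07 (adjusted p = 1.18e-06), and *P2ry10b* by -0.47 ± 0.07 (adjusted p = 0.000544), a call lost with spike-in scaling (-0.34, adjusted p = 0.0635). A second *P2rx3* probe was at -0.33 (adjusted p = 0.0968). Between emodin and IL4, 4 fell. *P2rx5* was among them (adjusted p = 1.03e-06), with only 1 of 4 emodin arrays well above background, so no size is given. *P2ry1*, *P2rx3* and *P2ry10b* were lower by -0.52, -0.63 and -0.64, although the second probes of *P2rx3* (0.46) and *P2ry10b* (-0.09) did not share this. *P2rx2* was called higher (0.61 ± 0.21, adjusted p = 0.0251), not with quantile normalization (0.35, adjusted p = 0.165) and reversed with spike-in scaling (-0.48). Against control, emodin left 2 higher, *P2ry1* (0.80) and *P2rx3* (0.46), and 2 lower, *P2rx5* and *P2ry10b* (-1.11), while spike-in scaling put *P2ry1* at -0.15 and *P2rx3* at -0.49.

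Of 11 tested ectonucleotidase genes, all of the *Entpd* and *Enpp* families of the cell surface or the secretory pathway, 1 was called with IL4. It was *Entpd3*, called higher (limma adjusted p = 0.00200), which was well above background on 4 IL4 arrays but on only 1 control and 1 emodin array. It passed the filter through the IL4 group alone, so no size is given. Emodin arrays had 2 higher and 4 lower than IL4, among them *Entpd8* (0.95) and *Entpd4* (-0.89), the first of which turned to -0.14 with spike-in scaling. *Entpd7* was well above background on 4 IL4 arrays, 1 control array and 0 emodin arrays, so it too passed through the IL4 group alone. No size is given for its fall. Both *Entpd3* and *Entpd7* are among the 4 lower, and passing the filter through IL4 alone favours such a fall. Against control, emodin left 2 higher, *Entpd8* and *Enpp1*, and 2 lower, and spike-in scaling put these 2 at -0.12 and -0.47.

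Of 9 tested enzymes of adenosine metabolism, 1 rose and 2 fell with IL4. The AMP deaminases moved apart: *Ampd2* rose by 1.21 ± 0.10 (limma adjusted p = 8.81e-06) and *Ampd3* fell by -1.29 ± 0.11 (adjusted p = 5.96e-06). A second *Ampd2* probe gave 0.45 (adjusted p = 0.129). Between emodin and IL4 the signs were the opposite, -1.98 ± 0.10 for *Ampd2* and 0.99 ± 0.11 for *Ampd3*, the latter -0.10 with spike-in scaling. *Pnp*, the purine nucleoside phosphorylase, fell by -1.03 ± 0.08 (adjusted p = 5.52e-07). In all, 3 of the 9 were higher and 2 lower with emodin against IL4, and 3 higher and 4 lower against control.

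The nucleoside transporters, which clear adenosine from outside the cell, had 5 of 7 genes tested. With IL4, *Slc29a2* rose (0.75 ± 0.15, limma adjusted p = 0.00458), while *Slc28a2* (-0.87 ± 0.14, adjusted p = 0.000874) and *Slc29a1* (-0.28 ± 0.07, adjusted p = 0.0154) fell, the latter not with spike-in scaling (-0.15, adjusted p = 0.491). Relative to IL4, emodin arrays had *Slc29a2* lower by -1.80 and *Slc28a2* by -0.51. *Slc28a1* (0.94) and *Slc29a1* (0.69) were higher, but at -0.15 and -0.40 with spike-in scaling. Against control, *Slc28a1* and *Slc29a1* were higher and 2 were lower with emodin, while spike-in scaling gave these genes -0.14 and -0.54.

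Of 6 tested genes of ATP and pyrophosphate release, 5 were lower and 1 higher with emodin against IL4, with a median of -0.87 beside 0.17 over all genes, of which 26.5% were lower and 39.4% higher. Against control, 4 were lower and 1 higher, with a median of -0.74 beside 0.15. They were led by *Calhm2*, at -2.30 ± 0.10 against IL4 (limma adjusted p = 7.33e-09). *Ank*, a pyrophosphate and ATP exporter, rose by 0.93 with IL4 and stood at -1.50 with emodin against IL4. *Panx1*, the pannexin channel that releases ATP, was lower by -0.98 against IL4. With IL4 against control, 1 of the 6 rose and 1 fell.

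Of 30 tested genes for G proteins and cyclic AMP signalling, 8 rose and 5 fell with IL4, beside 8.97% and 8.55% of all genes. *Adcy3*, an adenylate cyclase, rose by 1.24 ± 0.29 (limma adjusted p = 0.0115), and *Rgs1*, a brake on G protein signalling, fell by -1.10 ± 0.15 (adjusted p = 0.000228). Between emodin and IL4, 11 were higher and 14 lower, beside 39.4% and 26.5% of all genes. *Gnaq* (-1.63) and *Crem* (-1.36) were lower. *Rgs1* (1.68) and *Gna12* (1.44) were higher, and stayed above 0 with spike-in scaling at 0.60 and 0.35. Against control, 9 were higher and 12 lower, beside 37.3% and 25.6% of all genes. With spike-in scaling, 2 of the 30 were called higher and 26 lower against IL4, and the related lists above had 6 of 6 other P2 receptors, 8 of 11 ectonucleotidases, 8 of 9 metabolic enzymes, 4 of 5 transporters and 6 of 6 release genes called lower, where 16903 of all 20860 genes were called lower. Against control these counts were 5 of 6, 7 of 11, 9 of 9, 4 of 5 and 6 of 6, with 25 of the 30 G protein and cyclic AMP genes, beside 15789 of all genes.

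Of 7 macrophage markers, 2 were called higher and 3 lower with emodin against IL4, beside 39.4% and 26.5% of all genes. *Fcgr1* stood at -2.89 and *Lyz2* at 0.32. Of 4 markers of large peritoneal macrophages, *Icam2* (-1.59) was called lower and *Cd5l* (0.64) higher. Markers of other cell types moved in part with emodin. The sums here take the markers of a list that were above background on any array. For 5 of 6 B cell markers this level ranged from 2.50 to 2.70 in control, 2.49 to 2.66 with IL4 and 2.28 to 2.49 with emodin, and 3 of the 4 tested fell with emodin against IL4. *Cd79b* fell by 2.16, and *Ms4a1*, above background on 1 of 4 emodin arrays, was called lower too. *Cd22*, the brightest of the list and so the main part of its sum, differed by 0.21 (limma adjusted p = 0.0516). For 6 of 7 neutrophil markers it was 2.96 to 3.78, 2.79 to 3.27 and 2.45 to 3.02. For 4 of 6 eosinophil markers it was 0.43 to 0.68, -0.37 to 0.49 and -0.20 to -0.03, with *Epx* and *Prg2* never above background. For 4 of 6 T cell markers it was 2.11 to 2.26, 0.92 to 1.65 and 1.57 to 2.58, with *Cd3d* and *Cd3g* never above background. This sum is mainly the *Cd3e* probe, with means of 1.85, 0.90 and 1.93. The part of these cells in the receptor values was not tested.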

How the data were processed

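Total RNA was labelled with Cy3 and read on 12 Agilent arrays. Per the file headers, scanner output is background-subtracted spot intensity, with outlier spots marked, from Agilent Feature Extraction 10.7.3.1, per the submitters' processing notes. The deposited table holds log2 values. Recomputation from the scanner files gave the same values (r of at least 0.9998577 on every array) when arrays were quantile-normalized and each probe was centred on its median over the 12 arrays; column medians lay between -0.01 and 0.01. The table served as an alternative.

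Spots of controls and outliers were left out, spots of a probe were averaged, and log2 intensity was taken relative to the 75th percentile of each array. Probes were named through their RefSeq transcript, which gave 27509 probes 1 symbol and left 28172 without. After the filter, 27705 probes remained, and 20860 genes were tested, each by its brightest probe (13193 with a symbol, the others by transcript). Group means over 12 arrays (9 residual degrees of freedom) were compared with limma 3.58.1 in R 4.3.3, with Benjamini-Hochberg adjustment over all genes (27705 probes where single probes are given). The fit was tested on simulated data. data.table (version 1.17.8), pandas 2.3.3 and matplotlib 3.10.9 were used. With 4 arrays in a group, their number limits the precision.

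The receptors and all gene lists were chosen with earlier results of these data known. All 10 receptors were named, with up to 4 called genes of largest difference per related list and comparison, of which the text gives a subset. Same-numbered control and IL4 arrays deviated together (r = 0.31 to 0.52 over 4 pairs across genes). The number was also the slide column, so paired samples and a shared column cannot be told apart. With emodin, number 2 correlated at 0.09 against IL4 and 0.06 against control and the other numbers at 0.31 to 0.52. Pairing asked for over 0.1 in every pair, so none was taken. Coordinates are from RefSeq on GRCm38.p6; the array headers name another build, mm9, from which no position was taken.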

Additional observations from a re-analysis of the deposited data

Results flagged for a closer look

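The *P2rx7* probe for NM_001038887 had 1 emodin array, replicate 2, far from the other 3 relative to their narrow range: 1.78 beside 1.74 for the nearest array, a gap of 0.855 of the range. It was the only such array among 39 groups of 4 examined, where about 1 in 20 groups is marked by chance. *Adora2a* with emodin against control differed by 0.04 on the arrays labelled female and by -0.87 on those labelled male, with 2 arrays per sex and group, and this difference between the sexes was not tested. The arrays of the 2 sexes also lay in different slide columns.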

How the results depend on the processing

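Of 609 recomputed values, 565 kept their direction and their side of the threshold. With emodin against IL4, *P2rx4* turned to -0.22 with quantile normalization and with the deposited table, -0.21 with normexp and quantile, and -0.61 with spike-in scaling, and *P2ry2* to -0.18 with spike-in scaling. With emodin against control, spike-in scaling turned *P2rx4* to -0.21 (adjusted p = 0.0953) and *P2ry2* to -0.48, and *P2rx4* lost its call with quantile normalization (0.13, adjusted p = 0.110). The other 2 *P2rx7* probes opposed the brightest, at 0.14 and 1.10 against IL4 and 0.45 and 1.33 against control. *Adora2a* with IL4 ranged from -0.0095 to 0.13 when 1 array was left out, with the negative value without IL4 replicate 3. Its emodin call against IL4 was lost in 12 of 25 alternatives, among them normexp (adjusted p = 0.0797), no filter (0.0616) and a fit of only these groups (0.0779). Its difference against control passed with quantile normalization (0.0476) and spike-in scaling (-1.37, adjusted p = 1.14e-05).

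With IL4, 3656 genes were called, 5536 with normexp and 7321 without the filter; without it emodin gave 22743 calls against IL4 and 19856 against control. Leaving out 1 array gave 2883 to 3772, 12972 to 13932 and 12268 to 13027 calls, and 4 to 6, 7 to 8 and 7 to 8 receptor genes. With the replicate block, 5299, 15094 and 14512 genes and 7, 8 and 7 receptor genes were called; beside *P2ry14* with IL4 (0.41, adjusted p = 0.0416) it changed no receptor call. Omitting number 4 from the blocked fit was chosen after seeing the data; *P2ry2* with IL4 then missed the threshold (-0.41, adjusted p = 0.0755). The causes of these shifts were not tested. Signal near background left *Adora1* and *P2ry12* without a measured difference.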

Other observations

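The genes whose 12 array values, centred on their mean, lay closest to those of a receptor were found among 13159 named genes by root mean square distance on the log2 scale. For *P2rx7* (NM_011027) these were *Tmem104* (0.07) and *Atp2a2* (0.10), beside a spread of 0.62 of *P2rx7* about its own mean. *P2rx4* was closest to *Rbm18* and *Coq9* (0.08 each, beside 0.32). For *P2ry2* the nearest were *Epb41l2* (0.08) and *Tbc1d9* (0.09), beside 0.40. *P2ry6* lay nearest to *Rab19* (0.22) and *Cd300lb* (0.23), beside 1.56. *Adora3* was followed most closely by *Thbd* (0.24), which encodes thrombomodulin, and *Gm5086* (0.28), beside 1.57. *Adora2b* had *Aldh1b1* (0.16) and *Clec4a3* (0.20) at its side, beside 0.86. The least distinct matches were those of *P2ry14*, *Gm14308* (0.21) and *Armc2* (0.23) beside 0.72, and of *Adora2a*, *Ccny* (0.14) and *Zfp438* (0.16) beside 0.32. All points share the same 12 arrays and their scaling.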
